A study of Mus musculus with 8 samples.

Results

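Gene expression was compared between neutrophils that lacked the histamine H2 receptor (H2R) and wild-type neutrophils, in cell populations of low and of high density together. All 8 libraries of the study entered the comparison: 4 were labelled H2R deficient and 4 wild type, with density as an additive term in the model, so that the genotype difference is the shift shared by both populations. The cells came from 2-month-old C57BL/6 mice, an inbred laboratory strain. Casein, a milk protein, had been used to draw neutrophils into the peritoneal cavity, and the cells were then separated by density. Each combination of genotype and density had 2 libraries. H2R-deficient libraries are numbered 1 and 2 and wild-type libraries 2 and 4 in each population. The way in which the receptor gene was disrupted, and whether the deletion acts in all cells or in myeloid cells only, are details that the sources used here do not give. The labels do not say whether libraries came from separate animals, or whether the high-density and low-density libraries of the same number came from the same animal, so every p-value reflects spread among these libraries alone, and that spread may be technical.

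Histamine is made from histidine by the enzyme Hdc, and it acts on cells through 4 related receptors. H2R, the product of Hrh2, couples to the G protein Gs, which activates adenylyl cyclase, raises cyclic AMP and so activates protein kinase A and transcription factors of the CREB family. Raised cyclic AMP is known to dampen degranulation and the oxidative burst of neutrophils. Neutrophils that sediment with the low-density fraction are a mixture described in inflammation and cancer, and such a fraction can also hold monocytes, macrophages, eosinophils and lymphocytes.

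Each library held 19862716 to 24199215 counts assigned to genes, and 14909 genes were tested. Genes of neutrophils were detected in every library: S100a8, a subunit of calprotectin, lay between 4329 and 17580 CPM (read counts relative to the TMM-scaled library size) in the 8 libraries, and Ly6g, the surface antigen by which mouse neutrophils are sorted, between 53.4 and 251 CPM. The first principal component separated the densities and held 67% of the variance. The scaling factors also followed density, at 0.742 to 0.808 in high-density and 1.114 to 1.493 in low-density libraries, and in the low-density population they were higher in both H2R-deficient libraries (1.344 and 1.493) than in both wild-type ones (1.114 and 1.244). Xist, the noncoding RNA of the inactive X chromosome, was at 91.6 CPM in wild-type high-density library 2 and between 262 and 436 CPM in the other 7 libraries.

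The targeted gene was lower in H2R-deficient libraries of both populations, but the shared difference did not pass the test. Hrh2 (ENSMUSG00000034987; chromosome 13, 54192129 to 54236180, plus strand, GRCm38) lay at 118 and 41.3 CPM in the wild-type high-density libraries and at 35.0 and 17.6 CPM in the H2R-deficient ones. At low density Hrh2 lay at 22.5 and 32.5 CPM in wild-type and at 12.1 and 7.60 CPM in H2R-deficient libraries. The genotypes did not overlap within either population. The additive log2 fold change of Hrh2, H2R deficient minus wild type, was -1.54 ± 0.34 (SE; edgeR quasi-likelihood test with Benjamini-Hochberg adjustment, adjusted p = 0.0913). Leaving out 1 library at a time gave Hrh2 values between -1.77 without wild-type high-density library 4, where it was called (edgeR adjusted p = 0.0328), and -1.16 without wild-type high-density library 2. The counts cover the whole gene, so reads from beyond the deletion may be among them, which makes Hrh2 a partial check of the labels.

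Across both populations 49 of the 14909 genes tested were called (0.329%; edgeR, adjusted p under 0.05), of which 43 were lower (0.288%) and 6 higher (0.0402%) in H2R-deficient cells. In all 49, both H2R-deficient libraries lay on the same side of both wild-type libraries at high density and again at low density, in the same direction, so that all 49 shifted the same way by this rule. Over all genes tested, without regard to the test, 979 (6.57%) were separated in this way in the lower direction and 785 (5.27%) in the higher direction. At an unadjusted p under 0.05 there were 1169 lower (7.84%) and 772 higher genes (5.18%). Protein-coding genes made up 37 of the 49. The 43 lower genes had log2 fold changes between -2.91 and -0.93, with a median of -1.46. The median of all genes tested was 0.02. Adjusted p-values of the 49 ran from 0.0165 to 0.0498, and 154 further genes had one from 0.05 to 0.10. Palm, Rflnb and Pik3c2b lay just inside the threshold (edgeR adjusted p = 0.0480 to 0.0498) and Rps18-ps2, Sfxn5 and Col11a2 just outside (0.0541 to 0.0542).

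The calls rested on few libraries and on the scaling. Without H2R-deficient high-density library 1 or 2, or without wild-type high-density library 2, edgeR called 0 genes at an adjusted p under 0.05, with 1680, 1876 and 1580 genes at an unadjusted p under 0.05. Without H2R-deficient low-density library 1 or 2 it called 4 and 7 genes, and without wild-type low-density library 4 it called 3. Without wild-type low-density library 2 it called 51, and without wild-type high-density library 4 it called 107. With total counts in place of TMM scaling, edgeR called 5 lower genes and 0 higher genes: Siglecf, Selenop, Soat2, Gm37347 and Gm45221. That scaling moved the median log2 fold change of all genes from 0.02 to 0.13, so each difference given here is relative to the TMM scale. Where same-numbered libraries were treated as a replicate block, limma called 396 genes with the additive model, all 49 among them, and 50 genes with 1 mean per group, 25 of the 49 among them. The consensus correlation within the block was -0.234 in the additive fit. A negative value narrows the error of the genotype difference, so the 396 calls are not a stricter check. With the same-numbered libraries summed, edgeR called 0 genes (lowest adjusted p = 0.112). In that fit 2719 of the 14909 genes had an unadjusted p under 0.05, all 49 among them. The 49 had been picked from these same libraries, so this is no separate support for them.

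**Figure D1:**
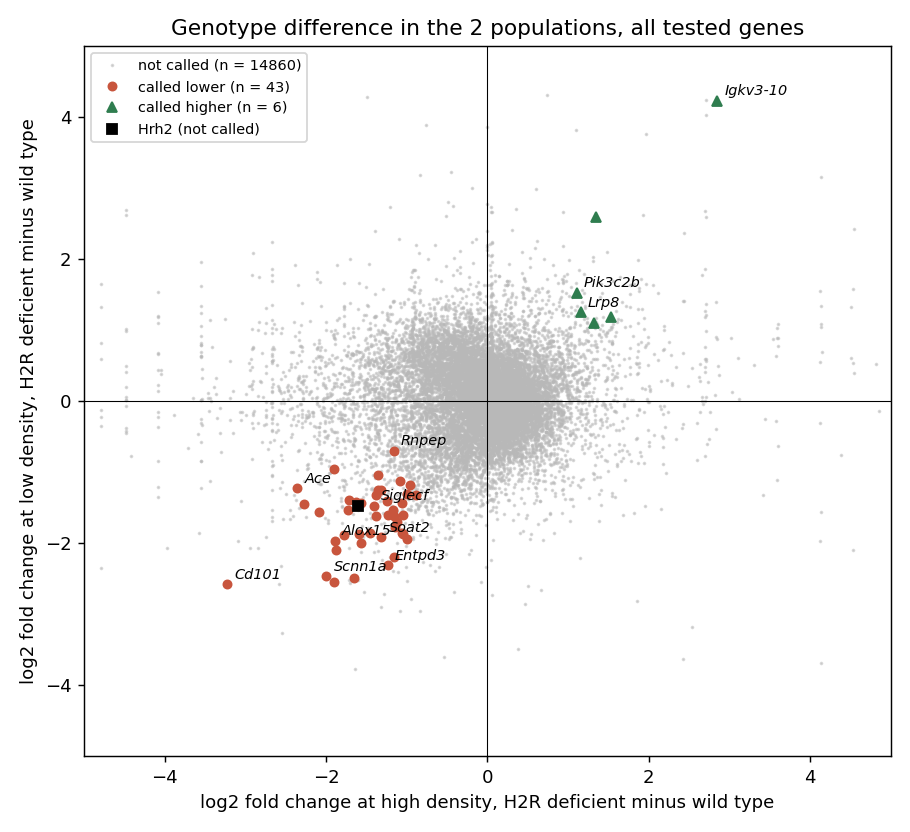
Log2 fold change of each tested gene, H2R deficient minus wild type, at high density (horizontal axis) and at low density (vertical axis). Red circles are the 43 genes called lower and green triangles the 6 called higher in the additive fit, the black square is Hrh2, grey points are genes not called, and 52 genes outside the axis range of -5 to 5 are not drawn. All called genes sit at the lower left or the upper right, places that the additive fit favours, and the grey cloud runs to all sides.

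The plot of the genotype differences in the 2 populations places the 49 genes against the rest. Over all genes the differences at high and at low density had opposite signs for 7912 genes (53.1%), so a shared direction was not the general rule. Of the 49 genes, 33 had the larger log2 fold change at low density and 16 at high density. With TMM scaling none of the 49 passed the edgeR test of a difference between the populations (lowest adjusted p = 0.114). Across all genes that test called 0 (lowest adjusted p = 0.0906), with 3150 genes at an unadjusted p under 0.05. That 0 depended on the fit: with total counts only the test called 635 of the 14909 genes, 1 of the 49 among them, and with a replicate block 28 genes, 0 of the 49. A gene that differs much between the populations is less likely to be called in the additive fit. The counts among the 49 were therefore partly set by how the 49 were picked. The genotype difference within one population called 31 genes at high density (0.208%), 3 positive (0.0201%) and 28 negative (0.188%), with 4 of the 31 among the 49, and 0 at low density (edgeR, lowest adjusted p = 0.0868), with 3128 low-density genes at an unadjusted p under 0.05. The 31 fell to 0 when only the 4 high-density libraries were fitted.

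Selenop and Siglecf had the lowest adjusted p-values. Selenop encodes selenoprotein P, a secreted protein that carries selenium (ENSMUSG00000064373; chromosome 15, 3268547 to 3280508, plus strand). It lay at 48.4 and 35.5 CPM in wild-type high-density libraries, at 9.93 and 15.4 in H2R-deficient high-density libraries, at 38.3 and 34.5 in wild-type low-density libraries and at 12.6 and 12.4 in H2R-deficient low-density libraries. All 4 H2R-deficient libraries of Selenop were below all 4 wild-type libraries, whatever their density, and the wild-type levels of the 2 populations overlapped. The additive log2 fold change of Selenop was -1.63 ± 0.18 (edgeR adjusted p = 0.0165), with -1.73 at high and -1.54 at low density.

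Siglecf encodes a sialic acid-binding lectin that marks eosinophils (ENSMUSG00000039013; chromosome 7, 43351341 to 43359531, plus strand). At high density Siglecf lay at 38.8 and 32.7 CPM in wild-type and at 14.1 and 12.8 in H2R-deficient libraries. At low density it lay at 16.1 and 18.9 CPM in wild-type and at 5.32 and 7.32 in H2R-deficient libraries. Both genotypes had less Siglecf at low density, and the genotype differences of the populations were close, at -1.41 and -1.47, with an additive value of -1.44 ± 0.17 (edgeR adjusted p = 0.0165). Soat2, which esterifies cholesterol for storage (chromosome 15, 102150526 to 102163474, plus strand), lay at 72.1 and 64.9 against 29.9 and 25.2 CPM at high density and at 34.1 and 43.9 against 8.09 and 12.6 CPM at low density, wild type first. Its additive log2 fold change was -1.61 ± 0.20 (edgeR adjusted p = 0.0257). Selenop, Siglecf and Soat2 were each called in 15 of 20 alternative settings and in 5 of the 8 fits that left out a library, and lost the call without H2R-deficient high-density library 1 or 2 or wild-type high-density library 2. The other 46 genes were called in 6 to 12 of the 19 or 20 settings in which they could be fitted and in at most 3 of those 8 fits. No called gene changed direction in any of them. Their genotypes did not overlap in either population, so a change was hardly possible, and its absence is no separate support.

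The largest fall was that of Cd101, a surface glycoprotein used to mark mature mouse neutrophils (ENSMUSG00000086564; chromosome 3, 100993529 to 101029556, minus strand). Cd101 lay at 145 and 30.4 CPM in the wild-type high-density libraries, at 8.41 and 10.3 in the H2R-deficient high-density libraries, at 20.2 and 21.8 in the wild-type low-density libraries and at 2.97 and 4.10 in the H2R-deficient low-density libraries. Wild-type high-density library 2 stood far above the rest, but the other 3 wild-type libraries were also above all 4 H2R-deficient ones. The additive log2 fold change of Cd101 was -2.91 ± 0.43 (edgeR adjusted p = 0.0458). Leaving out wild-type high-density library 2 gave Cd101 a value of -2.23 (edgeR adjusted p = 0.0784), and leaving out wild-type high-density library 4 gave -3.17 (edgeR adjusted p = 0.00469). Wild-type high-density library 2 was also the highest library for Hrh2, Egr3, Selenop, Siglecf, Soat2, Rab27a, Trpm2, Fgl2, Cass4 and Scnn1a, though not for Ace or Alox15. It was the library with the lowest Xist level as well.

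**Figure D2:**
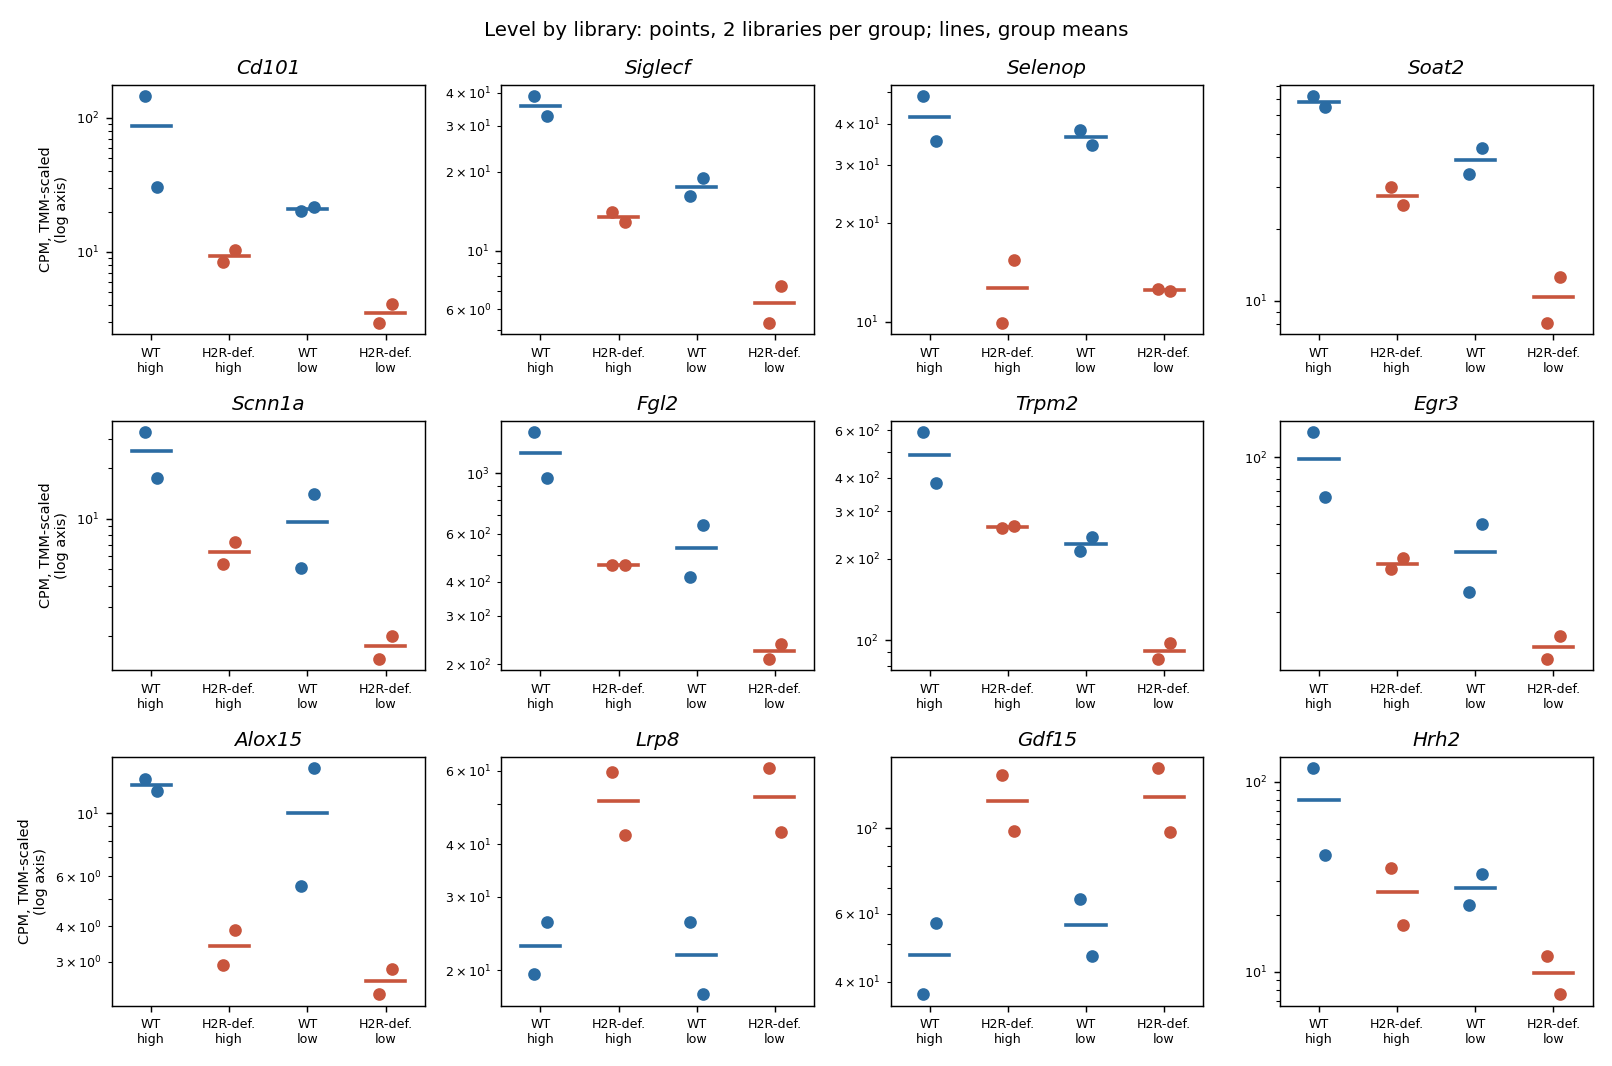
Level of 12 genes in each library, in CPM over TMM-scaled library sizes on a log axis, for wild-type (blue) and H2R-deficient (red) libraries at high and low density; points are libraries and lines are means of 2. In 9 genes both red groups sit below the blue group of the same density, Lrp8 and Gdf15 show the reverse, and Hrh2, which was not called, is separated in each population.

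Rab27a, Trpm2, Card9 and Map3k5 were called lower. Rab27a, a small GTPase that docks secretory granules, lay at 166 and 105 CPM in wild-type and 69.7 and 59.8 in H2R-deficient high-density libraries, and at 53.3 and 94.1 against 25.8 and 29.0 at low density (log2 fold change -1.25 ± 0.22, edgeR adjusted p = 0.0467). Trpm2, a calcium-permeable channel opened by oxidative stress, lay at 591 and 381 against 261 and 266 CPM at high density and at 214 and 241 against 85.4 and 97.6 at low density (-1.10 ± 0.19, edgeR adjusted p = 0.0461). Card9, the adaptor that relays signals from C-type lectin receptors, had a value of -1.15 ± 0.21. Map3k5, the stress-activated kinase also called ASK1, fell by 1.07 on the log2 scale. In each of these 4 genes both H2R-deficient libraries lay below both wild-type libraries of the same density.

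Fgl2, a secreted or membrane-bound fibrinogen-like protein with immunoregulatory activity, fell in both populations. Its libraries lay at 1412 and 955 CPM in wild-type and 462 and 460 in H2R-deficient cells at high density, and at 417 and 643 against 210 and 236 at low density (-1.31 ± 0.20, edgeR adjusted p = 0.0383). Cass4, a scaffold protein of adhesion signalling, lay at 738 and 646 against 255 and 360 CPM at high density and 194 and 334 against 69.4 and 114 at low density. Its difference was -1.35 ± 0.24. Pi16, a secreted protein of the CAP family, fell by 1.46, and Cd244a, a receptor of the SLAM family also called 2B4, by 1.47. Nlrp1b, an inflammasome sensor, lay at most at 3.54 CPM and fell by 1.79.

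Scnn1a, Entpd3, Ace and Alox15 were also called lower. Scnn1a, a subunit of the epithelial sodium channel, lay at 32.9 and 17.5 CPM in wild-type and 5.37 and 7.28 in H2R-deficient high-density libraries, and at 5.07 and 14.1 against 1.47 and 2.02 at low density. Its log2 fold change of -2.22 ± 0.34 (edgeR adjusted p = 0.0383) was the next largest after Cd101 among genes with at least 5 CPM. Entpd3, an ectoenzyme that breaks down extracellular nucleotides, differed more at low density (-2.31) than at high density (-1.24), a difference that did not pass the test (edgeR adjusted p = 0.276). Slc25a18, a mitochondrial glutamate carrier, fell by 1.20, Slco4a1, an organic anion transporter, by 1.10, and Rnpep, an aminopeptidase, by 0.93. Ace, the angiotensin-converting enzyme, lay at 8.78 and 11.4 against 1.64 and 2.30 CPM at high density and at 3.40 and 3.17 against 1.496 and 1.308 at low density (-1.79 ± 0.29, edgeR adjusted p = 0.0458). Alox15, a lipoxygenase of resident peritoneal macrophages and eosinophils, lay at 13.3 and 12.0 against 2.92 and 3.89 CPM at high density. At low density Alox15 lay at 5.55 and 14.5 against 2.30 and 2.83 CPM (-1.93 ± 0.29, edgeR adjusted p = 0.0383).

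Egr3 and Zbtb16, both transcription factors, were called lower. Egr3, an immediate-early zinc finger factor, lay at 130 and 66.3 CPM in wild-type and 31.1 and 34.8 in H2R-deficient high-density libraries, and at 24.6 and 50.1 against 12.3 and 15.5 at low density (-1.50 ± 0.26, edgeR adjusted p = 0.0466). Zbtb16, the factor PLZF of innate-like lymphocytes, lay at or below 3.52 CPM in every library and fell by 1.82. In wild-type cells 40 of the 43 lower genes had a lower mean at low than at high density. Cd163 and Cd163l1, chosen here after their values were seen, did not. The same share over all genes tested was not worked out, so this count cannot be read as a trait of the 43.

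Lower levels were also found side by side on chromosomes. Ccpg1, a receptor for autophagy of the endoplasmic reticulum, Pigb, an enzyme of glycosylphosphatidylinositol anchor synthesis, and Rab27a lie next to each other on chromosome 9 (72985429 to 73016340, 73007419 to 73040378 and 73044854 to 73097629). They fell by 1.32, 1.29 and 1.25. Ccpg1 and Pigb overlap on opposite strands. The sources used here do not give the strand setting of the counting, and reads of one may have been counted for the other. Gm16894 and Gm37347 lie 2.7 kb apart on chromosome 1 and fell by 1.46 and 1.68, and the predicted genes Gm26756 and Gm42632 overlap on the same strand of chromosome 5. These neighbours were picked out after their values were seen. Further lower genes were Ifitm5 (-1.65), the ESCRT-I subunit Mvb12b (-1.52), Rflnb (-1.46), Palm (-1.41) and the predicted genes Gm11210 (-2.21), Gm11827 (-2.05), Gm28192 (-1.82), Gm9733 (-1.49), Gm45221 (-1.41), Gm38171 (-1.35) and Gm5150 (-1.33).

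The 6 higher genes included 3 with at least 5 CPM that were neither a pseudogene nor an antigen receptor segment. Lrp8, a lipoprotein receptor that binds apolipoprotein E and selenoprotein P, lay at 19.6 and 26.0 CPM in wild-type and 59.7 and 42.1 in H2R-deficient libraries at high density, and at 26.0 and 17.5 against 60.9 and 42.7 at low density (1.21 ± 0.20, edgeR adjusted p = 0.0458). Gdf15, a stress-induced secreted factor of the TGF-beta superfamily, lay at 37.1 and 56.7 against 137 and 98.4 CPM at high density and at 65.7 and 46.8 against 143 and 97.6 at low density (1.21 ± 0.21, edgeR adjusted p = 0.0466). Lrp8 and Gdf15 were higher in all 4 H2R-deficient libraries than in all 4 wild-type ones, and in each genotype their levels at high and low density were close. Within H2R-deficient cells both were higher in library 1 than in library 2 at each density.

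Pik3c2b, a class II phosphoinositide 3-kinase, lay at 2.12 and 2.07 against 5.20 and 3.83 CPM at high density and at 10.9 and 5.48 against 24.2 and 22.9 at low density (1.34 ± 0.24, edgeR adjusted p = 0.0498). It was called in none of the 8 fits that left out a library. Igkv3-10, a variable segment of the immunoglobulin kappa chain, held 0 and 4 counts in wild-type and 13 and 16 in H2R-deficient high-density libraries, and 12 and 15 against 599 and 105 at low density. Without H2R-deficient low-density library 1 its log2 fold change of 3.89 became 2.81 (edgeR adjusted p = 0.109). Ighv5-9-1, a heavy chain variable segment, held 3 and 5 against 10 and 10 counts at high density and 36 and 47 against 495 and 178 at low density. The sixth was Gm17230, a pseudogene (1.35 ± 0.24). Single segments can mark expanded clones and share sequence with related segments, so the assignment of their reads is uncertain.

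Macrophage markers had negative values in both populations for 13 of 14 tested genes. Among the 14, edgeR called 2 lower (0.288% of all genes were), and 12 had an unadjusted p under 0.05 and a negative value, where 7.84% of all genes did. Their median log2 fold change was -1.06, with -1.54 at high and -0.67 at low density, and 10 of the 14 had genotypes that did not overlap in either population (6.57% of all genes). Cd163, the scavenger receptor for haemoglobin bound to haptoglobin, lay at 3.01 and 4.78 against 1.23 and 1.34 CPM at high density and at 7.94 and 6.42 against 1.72 and 2.19 at low density (-1.75 ± 0.26, edgeR adjusted p = 0.0383). The complement subunits C1qa (-1.44, edgeR adjusted p = 0.0577) and C1qb (-1.25, 0.0833), the mannose receptor Mrc1 (-1.27, 0.0693) and the apolipoprotein Apoe (-1.06, 0.0562) did not pass. Adgre1, the F4/80 antigen, and Csf1r, the receptor for macrophage colony-stimulating factor, both had values of -0.50, neither past the test (edgeR adjusted p = 0.199 and 0.366). The summed level of the 14 markers, in CPM over all counts, was 900 and 920 in wild-type and 783 and 654 in H2R-deficient high-density libraries. It was 1053 and 856 against 919 and 781 at low density, where the genotypes overlapped. These sums are not TMM-scaled. The low-density scaling factors were higher in H2R-deficient (1.493 and 1.344) than in wild-type libraries (1.244 and 1.114). TMM scaling would therefore lower the H2R-deficient sums relative to the wild-type ones. On the TMM scale 13 of the 14 markers were lower at low density without overlap. In bulk RNA, fewer cells of a type and less RNA per cell cannot be told apart.

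**Figure D3:**
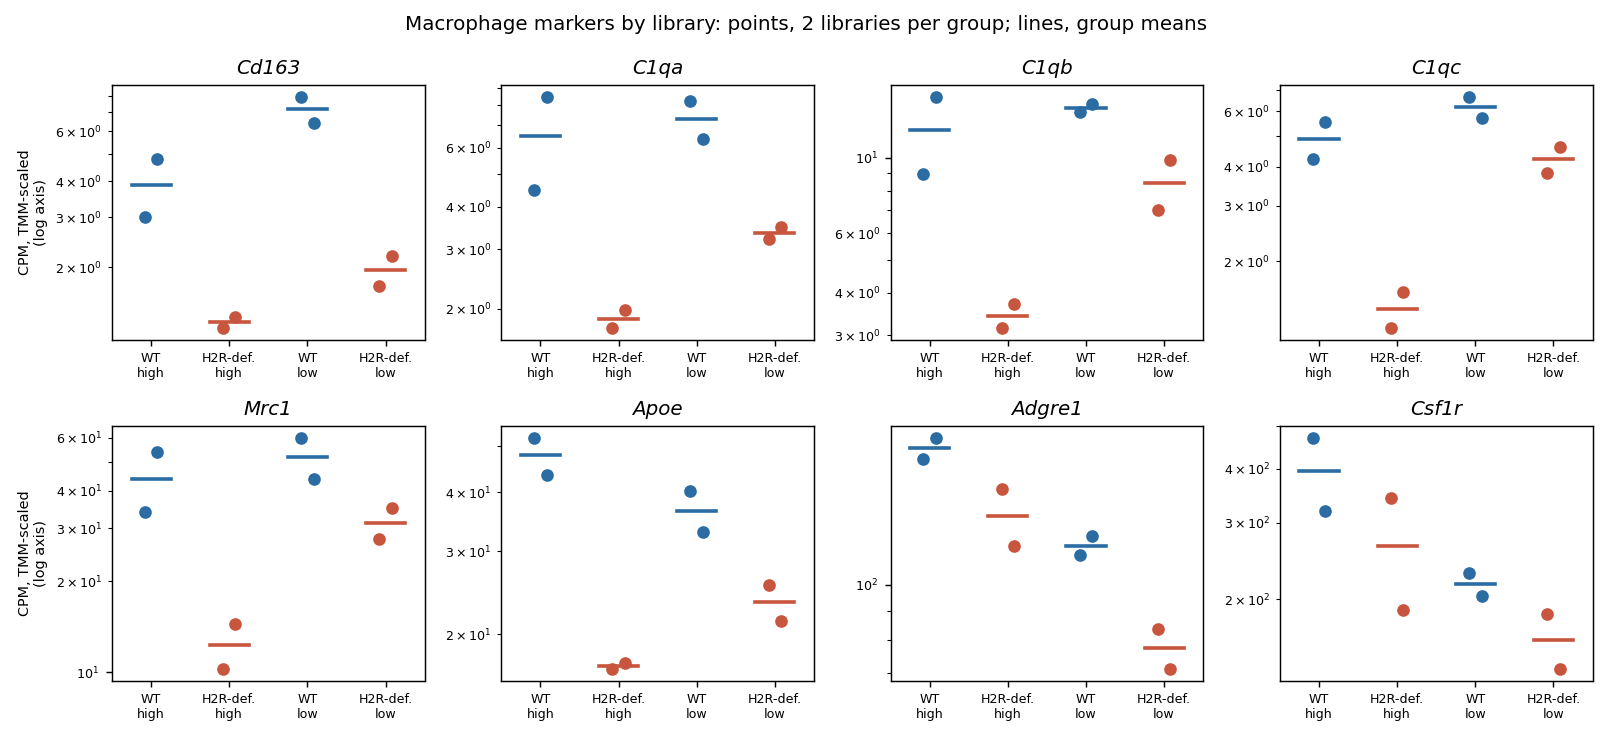
Level of 8 macrophage markers in each library, in CPM over TMM-scaled library sizes on a log axis; points are libraries, lines are means of 2, blue is wild type and red H2R deficient. In 7 of the 8 markers the red points lie below the blue points of the same density; Csf1r is the exception at high density, and Cd163 is the marker shown that was called.

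Among markers of eosinophils and monocytes, Siglecf and Ace were called lower. Over all genes 0.288% were called lower and 7.84% had an unadjusted p under 0.05 and a negative value. Of 6 tested eosinophil markers 1 was called (Siglecf), 5 had an unadjusted p under 0.05 and a negative value, and the median was -1.37. Il5ra, a subunit of the interleukin 5 receptor, had a value of 0.37 (edgeR adjusted p = 0.710). Ear6, an eosinophil ribonuclease, had a value of -1.41, the eotaxin receptor Ccr3 one of -1.10 and the granule protein Prg2 one of -1.33, none past the test (edgeR adjusted p = 0.0850 to 0.0913). The summed eosinophil level was 78.3 and 92.6 against 26.2 and 29.6 CPM of all counts at high density and 52.4 and 57.6 against 42.4 and 47.2 at low density, with no overlap in either. Siglecf and that sum were both lower in H2R-deficient libraries at each density, but not to the same degree. At high density the log2 fold change of Siglecf was -1.41 and the median of the 6 markers -1.35. At low density Siglecf had -1.47 and the median was -0.89, and the sum, which is not TMM-scaled, fell by less than at high density. The part of eosinophils in the Siglecf difference was not tested. Of 10 monocyte markers 1 was called (Ace) and 6 had an unadjusted p under 0.05 and a negative value, with a median of -0.88. Of the 10, 7 were negative in both populations, and Ly6c2, a surface antigen of classical monocytes, and Treml4 had additive values of 0.18 and 0.19 (edgeR adjusted p = 0.816 and 0.752). The fractalkine receptor Cx3cr1 (-1.85) and the ribonuclease Ear2 (-1.84) did not pass (edgeR adjusted p = 0.0603 for each). The summed monocyte level was 1163 and 1104 against 918 and 729 CPM of all counts at high density. At low density the genotypes overlapped (949 and 1095 against 953 and 850), but these sums are not TMM-scaled, and TMM scaling would lower the H2R-deficient ones relative to wild type. Among 11 markers of large peritoneal macrophages 1 was called (Alox15) and 3 were lower at an unadjusted p under 0.05. That list's summed level overlapped between genotypes at both densities, at 2652 and 3056 against 2716 and 2852 and at 3196 and 2700 against 2775 and 2799. It too is in CPM of all counts, so the low-density overlap holds on that scale only as given.

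Lymphoid markers did not share a direction. Of 12 markers of gamma-delta T17 and innate lymphoid cells 2 were called lower, Cd163l1 and Zbtb16, where 0.288% of all genes were. Negative values in both populations were found for 8 of these 12 and positive ones for 1. At an unadjusted p under 0.05, 4 were lower and 1 higher (7.84% and 5.18% of all genes). Cd163l1, the scavenger receptor SCART1 of interleukin 17-producing gamma-delta T cells, held 6 and 8 against 2 and 2 counts at high density, and at low density lay at 34.1 and 46.8 against 14.0 and 16.9 CPM (additive value -1.44 ± 0.22, edgeR adjusted p = 0.0383). The call for Cd163l1 therefore rested mainly on the low-density population. Of 16 B cell markers 0 were called in edgeR and 8 were higher at an unadjusted p under 0.05 (5.18% of all genes were). Their median was 0.06 at high and 1.46 at low density, so the positive B cell values came mostly from the low-density population, and the summed level at low density was 1548 and 562 in wild-type against 3340 and 3276 in H2R-deficient libraries. Pik3c2b and the antigen receptor segments were likewise higher in both H2R-deficient than in both wild-type low-density libraries, and the part of B cells in their difference was not tested. The 6 erythroid markers, genes of haemoglobin and its synthesis, had a median of -1.49 and 0 calls in edgeR. Of these, 5 were lower at an unadjusted p under 0.05 (7.84% of all genes were). Their summed level at high density was 186 in wild-type library 4 against 22.5 to 51.9 in the other 3 high-density libraries.

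**Figure D4:**
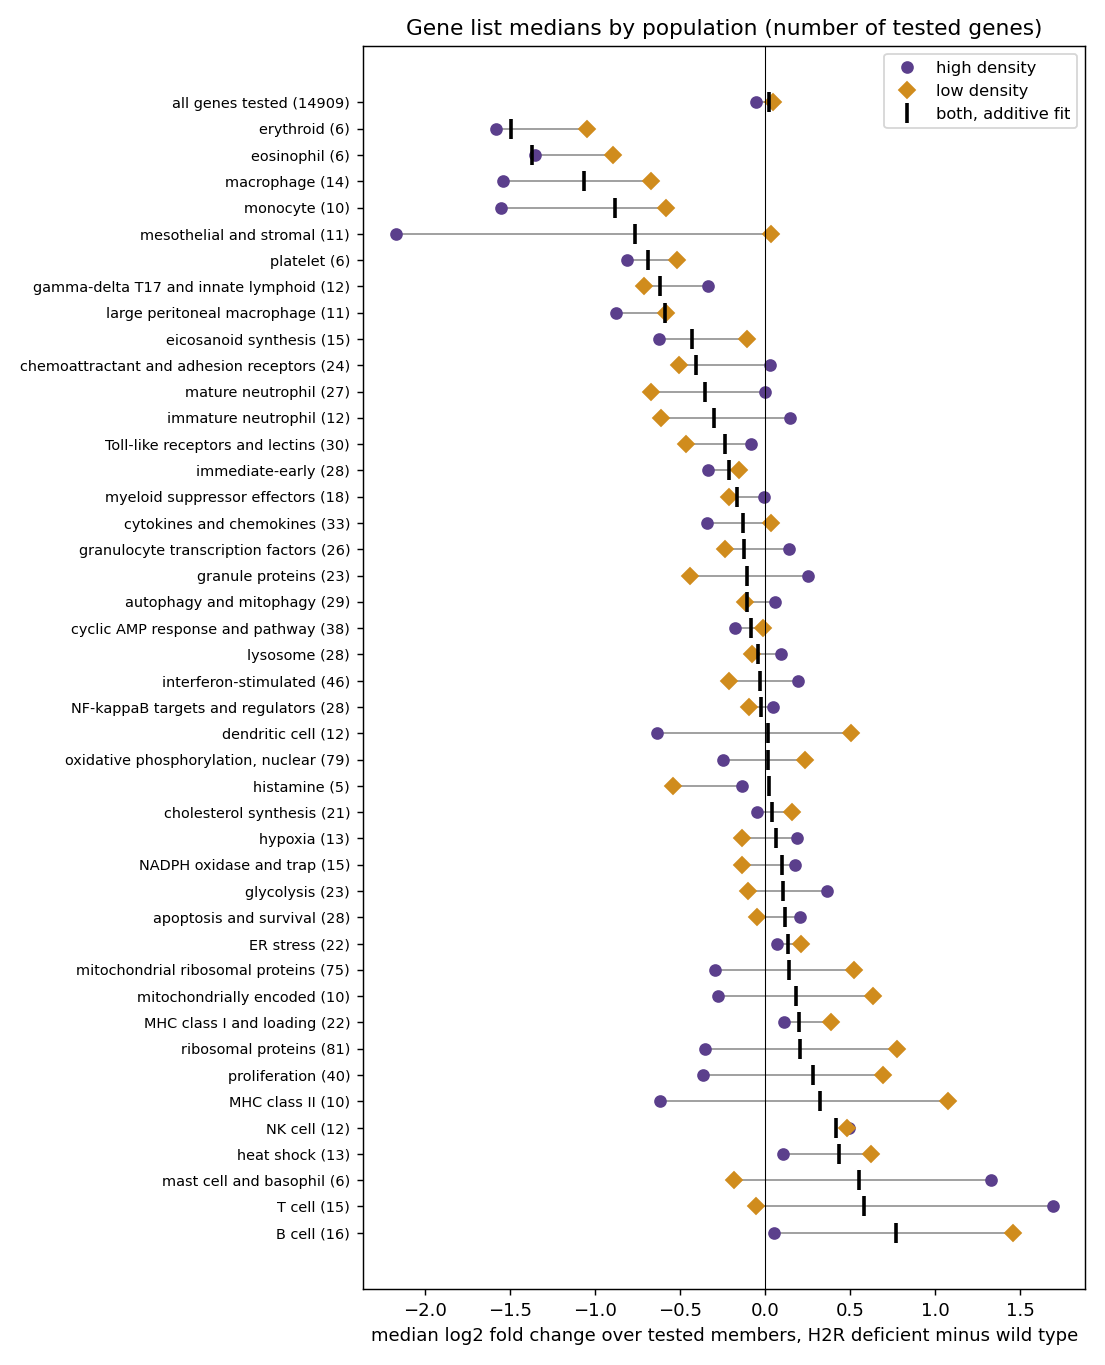
Median log2 fold change, H2R deficient minus wild type, over the tested members of each gene list, at high density (purple circles), at low density (orange diamonds) and in the additive fit (black bars), with the number of tested genes in brackets. Macrophage, eosinophil, monocyte and erythroid markers lie below 0 in both populations, and ribosomal, class II and proliferation genes lie on opposite sides of 0.

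Other genes of mature neutrophils were not called. Of 27 tested members 0 were called in edgeR, and 8 had an unadjusted p under 0.05 and a negative value (7.84% of all genes did). The median was -0.35, with 0.00 at high and -0.67 at low density. Il1r2, the decoy receptor for interleukin 1, lay at 2518 and 2239 against 1394 and 1284 CPM at high density and 795 and 1254 against 316 and 453 at low density. The shared difference of Il1r2, at -1.12 ± 0.22, missed the threshold (edgeR adjusted p = 0.0603). Csf3r, the receptor for granulocyte colony-stimulating factor, had a value of -0.79 (edgeR adjusted p = 0.172), and Ly6g and S100a8 had values of -0.29 and -0.25. The summed level of the list overlapped between genotypes at high density (74160 and 71750 against 72620 and 71820 CPM of all counts) and was lower in H2R-deficient libraries at low density (55050 and 66460 against 42020 and 50400).

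Of 24 chemoattractant and adhesion receptors 0 were called in edgeR. At an unadjusted p under 0.05, 9 were lower and 1 higher, where 7.84% and 5.18% of all genes were. The additive median was -0.40, but it was 0.03 at high and -0.51 at low density, and 11 of the 24 were negative in both populations. The integrin subunit Itgax (-0.85), the chemokine receptor Ccr2 (-1.06) and the complement receptor C3ar1 (-0.80) led these (edgeR adjusted p = 0.0907 to 0.107). Of 30 Toll-like receptors, lectins and their adaptors 7 were lower and 0 higher at that level, with 0 called in edgeR and a median of -0.23 (-0.08 at high and -0.46 at low density). Clec7a, the beta-glucan receptor Dectin-1 that signals through Card9, lay at 3350 and 2473 against 726 and 1418 CPM at high density and 877 and 1100 against 289 and 547 at low density. Its difference of -1.34 ± 0.27 did not pass (edgeR adjusted p = 0.0605). Tlr8, an endosomal receptor for single-stranded RNA, had a value of -1.25 (edgeR adjusted p = 0.0952).

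The pathway downstream of H2R was examined through 38 genes of cyclic AMP signalling and response, none of which was called in edgeR. At an unadjusted p under 0.05, 8 were lower and 1 higher, where 7.84% and 5.18% of all genes were. The median was -0.08, which became 0.028 with total counts only. Per1, a clock gene induced through CREB, lay at 616 and 529 against 229 and 346 CPM at high density and 212 and 246 against 106 and 149 at low density (-0.92 ± 0.19, edgeR adjusted p = 0.0686). The orphan nuclear receptors Nr4a1 (-0.77) and Nr4a3 (-0.94), which cyclic AMP induces, were not called (edgeR adjusted p = 0.113 and 0.196), although their libraries did not overlap between genotypes in either population. Of 28 immediate-early genes, which include some of the same genes, 1 was called (Egr3), 7 were lower and 4 higher at that level. Egr2 had a value of -1.33 (edgeR adjusted p = 0.0661), and Jun, a subunit of AP-1, one of 0.66 in the other direction (edgeR adjusted p = 0.185). In the histamine list Hdc had a value of -0.60 ± 0.25 (edgeR adjusted p = 0.348), and Hnmt, which methylates histamine, Slc18a2, a vesicular amine transporter, and Aldh7a1 had values of 0.11, 0.04 and 0.02, whose signs changed when single libraries were left out and, for Aldh7a1, also with upper-quartile scaling.

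Of 15 genes of eicosanoid synthesis 1 was called (Alox15), 5 were lower and 1 higher at an unadjusted p under 0.05 (7.84% and 5.18% of all genes), and the median was -0.43, with -0.62 at high and -0.11 at low density. Tbxas1, thromboxane synthase, had a value of -0.99 (edgeR adjusted p = 0.0605) and Pla2g7, which inactivates platelet-activating factor, one of -0.79 (edgeR adjusted p = 0.0850). Of 13 heat shock genes 5 were higher and 0 lower at that level, with 0 called in edgeR. The additive median was 0.44, with 0.11 at high and 0.62 at low density. Hspa8, a constitutive chaperone of the HSP70 family, lay at 531 and 385 against 771 and 558 CPM at high density and 525 and 537 against 903 and 711 at low density (0.57 ± 0.18, edgeR adjusted p = 0.213). Of 22 genes of class I presentation 2 were higher at that level and 0 were called in edgeR.

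Other groups show what the additive comparison leaves out. None of 81 ribosomal protein genes was called in edgeR, and 0 had an unadjusted p under 0.05. Their median was -0.35 at high and 0.78 at low density, and 3 of 81 had the same sign in both. The 10 class II presentation genes had medians of -0.62 and 1.07, and 0 of 10 had the same sign. Ribosomal protein genes have many processed pseudogenes, which can take or give reads.

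Genes near Hrh2 were examined because a targeted strain can carry flanking DNA of the line in which the targeting was done. Of 127 tested genes within 10 Mb of Hrh2 0 were called in edgeR, as were 0 of 223 within 20 Mb, where 0.329% of all genes were. With so low a share over all genes, 0 calls among 127 says little about this region. At an unadjusted p under 0.05, 9 of the 127 were higher (7.09%) and 6 lower (4.72%), where 5.18% and 7.84% of all genes were. Tgfbi, at 2.37 Mb from Hrh2 (-1.21, edgeR adjusted p = 0.0566), and Diras2, at -1.66 Mb (1.43, 0.079), lay just outside the threshold.

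**Figure D5:**
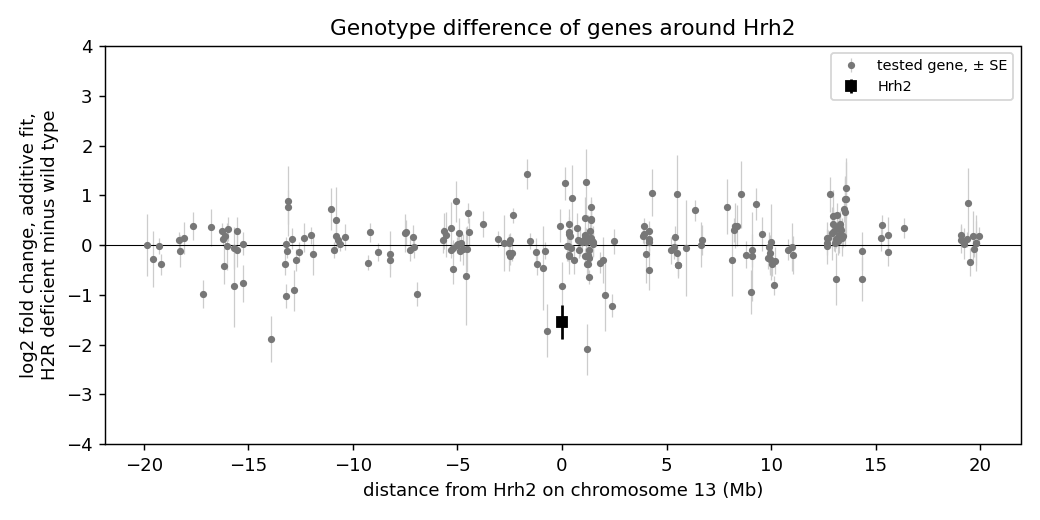
Additive log2 fold change (± SE) of tested genes on chromosome 13 by distance from Hrh2 in Mb; the black square is Hrh2 and grey points are other genes. The genes around Hrh2 scatter to both sides of 0, and 0 of 223 within 20 Mb were called.

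The promoters of the called genes were searched for the cyclic AMP response element, the motif bound by CREB, in windows of 250 bases before to 50 bases after the RefSeq start (GRCm38.p6). RefSeq windows were matched for 28 of the 43 lower genes (34 promoters), 3 of the 6 higher genes (6 promoters) and 10487 of all tested genes (13366 promoters). The full element TGACGTCA was found in 0 of 34 promoters of lower genes and 0 of 6 of higher genes, against 390 (2.92%) of all tested genes. The shorter form TGACG, which the full element contains, was found on either strand in 7 of 34 (20.6%) and 2 of 6 (33.3%), against 3964 (29.7%) of all. Counted by gene, it was in 5 of 28 lower and 1 of 3 higher genes, against 3585 of 10487, since the 3 overlapping Selenop windows hold the same site. A match is only these letters in the window and no match says nothing about the factor. The windows of Selenop, with the lowest adjusted p, Cd101, with the largest fall, Trpm2, another lower gene, and Lrp8, a higher gene, are shown, chosen among those that hold the shorter form, 5′ to 3′ on the strand of the gene. Capitals mark TGACG or its reverse complement CGTCA. Selenop and Lrp8 have 3 windows each, of which 1 is shown. The windows are chr15:3270561-3270860 on the plus strand for Selenop, chr3:101029504-101029803 on the minus strand for Cd101, chr10:77969823-77970122 on the minus strand for Trpm2 and chr4:107822911-107823210 on the plus strand for Lrp8.
Selenop: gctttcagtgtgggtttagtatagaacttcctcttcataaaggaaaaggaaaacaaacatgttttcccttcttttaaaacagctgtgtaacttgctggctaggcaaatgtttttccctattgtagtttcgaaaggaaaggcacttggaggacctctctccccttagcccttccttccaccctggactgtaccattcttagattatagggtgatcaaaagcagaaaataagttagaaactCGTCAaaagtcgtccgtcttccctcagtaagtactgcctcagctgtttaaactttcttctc
Cd101: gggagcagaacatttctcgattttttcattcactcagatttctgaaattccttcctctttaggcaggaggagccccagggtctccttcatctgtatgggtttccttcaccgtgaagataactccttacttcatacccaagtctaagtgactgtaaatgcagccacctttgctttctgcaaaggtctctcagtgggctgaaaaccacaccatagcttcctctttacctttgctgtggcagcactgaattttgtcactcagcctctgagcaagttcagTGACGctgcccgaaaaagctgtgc
Trpm2: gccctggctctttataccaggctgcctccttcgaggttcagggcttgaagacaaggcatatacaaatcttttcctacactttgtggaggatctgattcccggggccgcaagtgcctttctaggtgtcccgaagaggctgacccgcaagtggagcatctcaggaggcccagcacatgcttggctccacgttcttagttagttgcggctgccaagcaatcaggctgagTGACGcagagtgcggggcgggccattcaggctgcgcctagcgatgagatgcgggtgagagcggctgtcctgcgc
Lrp8: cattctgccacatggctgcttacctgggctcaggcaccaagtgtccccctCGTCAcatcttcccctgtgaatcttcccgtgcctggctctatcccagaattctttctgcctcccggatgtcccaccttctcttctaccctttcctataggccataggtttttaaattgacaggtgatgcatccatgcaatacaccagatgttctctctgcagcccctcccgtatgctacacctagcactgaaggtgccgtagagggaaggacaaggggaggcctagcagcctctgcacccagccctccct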

How the data were processed

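Libraries from total RNA (Qiagen RNeasy) followed standard Illumina preparation, per the labels' protocols. Per the submitters' processing notes, tools included STAR 2.5.2b, Subread 1.5.2 with featureCounts, Trimmomatic 0.36 and bcl2fastq 2.17.1.14, with the build GRCm38. The authors deposited raw read counts per gene, not normalized. The sources used here do not give the strand setting, the annotation release or the treatment of multi-mapping reads. Of 49315 identifiers 49056 were matched to a symbol in GENCODE M21. Depth was 19862716 to 24199215 counts per library. Within each group the libraries differed by more than sampling noise (chi-square per degree of freedom 36.0 to 50.7).

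Genes were filtered with edgeR's filterByExpr by group and libraries scaled by TMM. The quasi-likelihood F test (edgeR 4.0.16, R 4.3.3, robust) used density plus genotype over 8 libraries, with 5 residual degrees of freedom and Benjamini-Hochberg adjustment over 14909 genes, called at an adjusted p under 0.05. Effects within each density and their difference came from a fit with 1 mean per group. DESeq2 1.42.0 and limma 3.58.1 were alternatives. Same-numbered libraries of a genotype deviated together (r = 0.326 in H2R-deficient and 0.155 in wild-type cells, across genes), which was taken as pairing; this comes from the data, not the labels, and with 2 libraries a group the 2 values within a genotype are equal by construction. Genotype is constant within a number, so the block entered by limma's duplicateCorrelation or by summing. The consensus correlation within the block was -0.234 with the additive model and 0.058 with 1 mean per group. In the additive model a genotype difference that changes with density lowers this correlation, so the -0.234 cannot decide on pairing. The 0.058 was small and positive. Whether same-numbered libraries are paired was therefore not settled.

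Named genes are the 15 largest rises and 15 largest falls among genes that shifted the same way, with at least 5 CPM in 1 genotype and no predicted, pseudogene or antigen receptor symbol (only 3 rises qualified), up to 4 members of each list described, those with the lowest p, Hrh2 and the histamine list. The remaining called genes, Adgre1, Csf1r, Ly6g, S100a8 and the antigen receptor segments were added after their values were seen. Some called genes are not reported here by name. The comparison, gene lists and tests were chosen with earlier results of these data known.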

Additional observations from a re-analysis of the deposited data

Results flagged for a closer look

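In 8 gene lists the summed level, in CPM over all counts and not TMM-scaled, separated the genotypes in opposite directions in the 2 populations. The low-density scaling factors were higher in H2R-deficient libraries. A small upward separation there may therefore not hold on the TMM scale. Cytokines and chemokines are such a case, at 33770 and 35180 in wild-type against 35630 and 38190 in H2R-deficient low-density libraries. Divided by their scaling factors, these low-density sums overlap between the genotypes, so that upward separation holds only without TMM scaling. The difference between the populations was not tested for a list, and with TMM scaling 0 members passed the edgeR test of it. With total counts only that test called 635 of all 14909 genes, 622 of them with a higher genotype difference at low density. Leaving out the scaling factors moves every gene in that direction. Among the 635 were 70 of 81 ribosomal protein, 8 of 10 class II, 11 of 79 oxidative phosphorylation and 9 of 75 mitochondrial ribosomal genes. There were also 4 of 40 proliferation, 3 of 33 cytokine and chemokine and 2 of 46 interferon-stimulated genes, and 0 of 23 granule protein genes. The interferon-stimulated share was close to that over all genes. With the replicate block the test called 28 of all 14909 genes, among them 3 of the granule protein and 1 of the class II genes and 0 of the other 6 lists. The values are medians over members of the log2 genotype difference at low minus that at high density. The median was 1.81 for class II presentation, where 10 of 10 members had opposite signs in the 2 populations. It was 1.17 for ribosomal proteins (78 of 81), 1.13 for proliferation genes (27 of 40) and 0.82 for mitochondrial ribosomal proteins (57 of 75). Nuclear genes of oxidative phosphorylation had 0.51 (62 of 79) and cytokines and chemokines 0.36 (18 of 33). Granule proteins had -0.70 (15 of 23) and interferon-stimulated genes -0.25 (25 of 46). Over all genes 53.1% had opposite signs.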

How the results depend on the processing

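The additive model called 49 genes, 6 higher and 43 lower, all of which shifted the same way. Total counts only gave 5 (0 higher, 5 lower, 5 the same way). No filter on low counts gave 797 (201 higher, 596 lower, 484 the same way), at least 10 counts in every library 101 (93 lower, 101 the same way), and DESeq2 471 (100 higher, 371 lower, 435 the same way). Limma-voom called 10 higher. The mean over 4 group means called 129 (120 lower, 123 the same way), and genotype with no density term 0 (0 higher, 0 lower, 0 the same way). The replicate block called 396 by limma (88 higher, 308 lower, 361 the same way; consensus correlation -0.234), 2 higher with 4 group means, a fit chosen after seeing the data, and 0 with libraries summed (0 higher, 0 lower, 0 the same way). Leaving out 1 library gave 0 to 107 genes, 0 to 8 higher, 0 to 99 lower and 0 to 107 the same way.

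High-density calls went from 31 to 73 with total counts, 0 in the 4 high-density libraries alone and 0 to 34 without 1 library. Low-density calls were 0 to 63 without 1 library. The difference between populations called 635 genes with total counts, 28 with the replicate block and 0 to 3 without 1 library. With total counts the lower calls in the macrophage, monocyte, large peritoneal macrophage, immediate-early and eicosanoid lists became 0, and the medians became -0.78 (monocyte), -0.14 (Toll-like receptors and lectins) and 0.028 (cyclic AMP, the reverse sign). Leaving out 1 library moved Hnmt between -0.079 and 0.231, Slc18a2 between -0.172 and 0.259 and Aldh7a1 between -0.143 and 0.228, and upper-quartile scaling gave Aldh7a1 -0.011. The cause was not tested for any of these. With 2 libraries a group, precision is limited by their number more than by depth.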
